A study of Drosophila melanogaster with 11 samples.

Results

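The 40 transcripts described here lay below the stage 14 oocyte level in wild-type embryos, in unfertilized eggs and in smg material alike, out of 6793 Drosophila melanogaster genes with a named spot on the arrays. They were chosen by their measured values. Spots of a gene were averaged and the median of each array was subtracted, so that every value below is a log2 ratio to oocytes relative to the median gene of its array. A gene entered when at least 3 arrays of each 2 to 3 h group measured it, when its mean was at or below -1 in wild-type embryos, at or below -0.7 in unfertilized eggs and at or below -0.7 in smg, and when its smg mean exceeded its wild-type mean by less than 1. Genes of the ribosome, proteasome, respiratory chain, chaperonin, translation initiation, cyclin and related families, and 8 single genes, were set aside by symbol, and 5 of these would otherwise have qualified (Yp1, Yp2, Yp3, exu and yin).

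The series title asks about smg (smaug) as the embryo takes over from its mother's RNA. All 11 arrays carried total RNA of w1118 stage 14 oocytes in one channel, so the oocyte is the reference of every comparison and has no spread of its own. Wild-type w1118 embryos aged 2 to 3 h filled 4 arrays, material of the same age labelled smg filled 4, and unfertilized w1118 eggs aged 4 to 6 h filled 3. The direction of the deposited ratios, sample over oocyte, is likely rather than stated. The labels name no smg allele. The fourth smg array is labelled as smg over a deficiency, and no smg label says whether the eggs were fertilized. The labels do not say whether replicates came from separate collections, so p-values measure the spread between these arrays, which may be technical. Precision is limited by having 3 or 4 arrays in a group.

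An egg is loaded with messenger RNA by its mother and is at first silent in transcription. In Drosophila one set of decay activities works from maternal products alone and starts with egg activation, with or without fertilization, and a second set needs transcription of the embryo's own genome. Smaug is an RNA-binding protein made after egg activation that binds stem-loops in its targets and recruits the CCR4-NOT deadenylase. Other maternal repressors such as Pumilio and Brain tumor act on further transcripts, so a transcript that falls in activated eggs need not be a Smaug target.

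The smg transcript itself had a spot. It was at -2.60, -0.77, -1.44 and -1.12 on wild-type embryo replicates 1 to 4, at -2.66, -1.18, 2.02 and 0.21 on the smg arrays, and at -0.39, -0.18 and 0.17 on the unfertilized arrays. The wild-type and smg arrays overlapped, and without a named allele the labels do not say whether the mutation lowers the RNA, so this level does not check the genotype.

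On smg replicate 3 the 40 transcripts stood elsewhere than on the other smg arrays. Their median was -1.66 on smg replicate 1, -1.61 on replicate 2, -0.10 on replicate 3 and -0.94 on replicate 4. On replicate 3 this is the 45.1 percentile of all genes there, against 3.92, 1.99 and 3.50 on replicates 1, 2 and 4. Of the 40 transcripts 18 lay above 0 on smg replicate 3, and 39 of 40 had their highest smg value there. Wild-type embryo replicate 1 and smg replicate 1 had values for 48.9% and 51.1% of spots, and the other 9 arrays for 75.0% to 99.1%. These 2 arrays also had deposited medians of -4.01 and -4.43, while the others lay between -0.37 and 0.16. Because smg replicate 3 moves the smg mean of nearly every transcript, values are given with and without it.

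**Figure D1:**
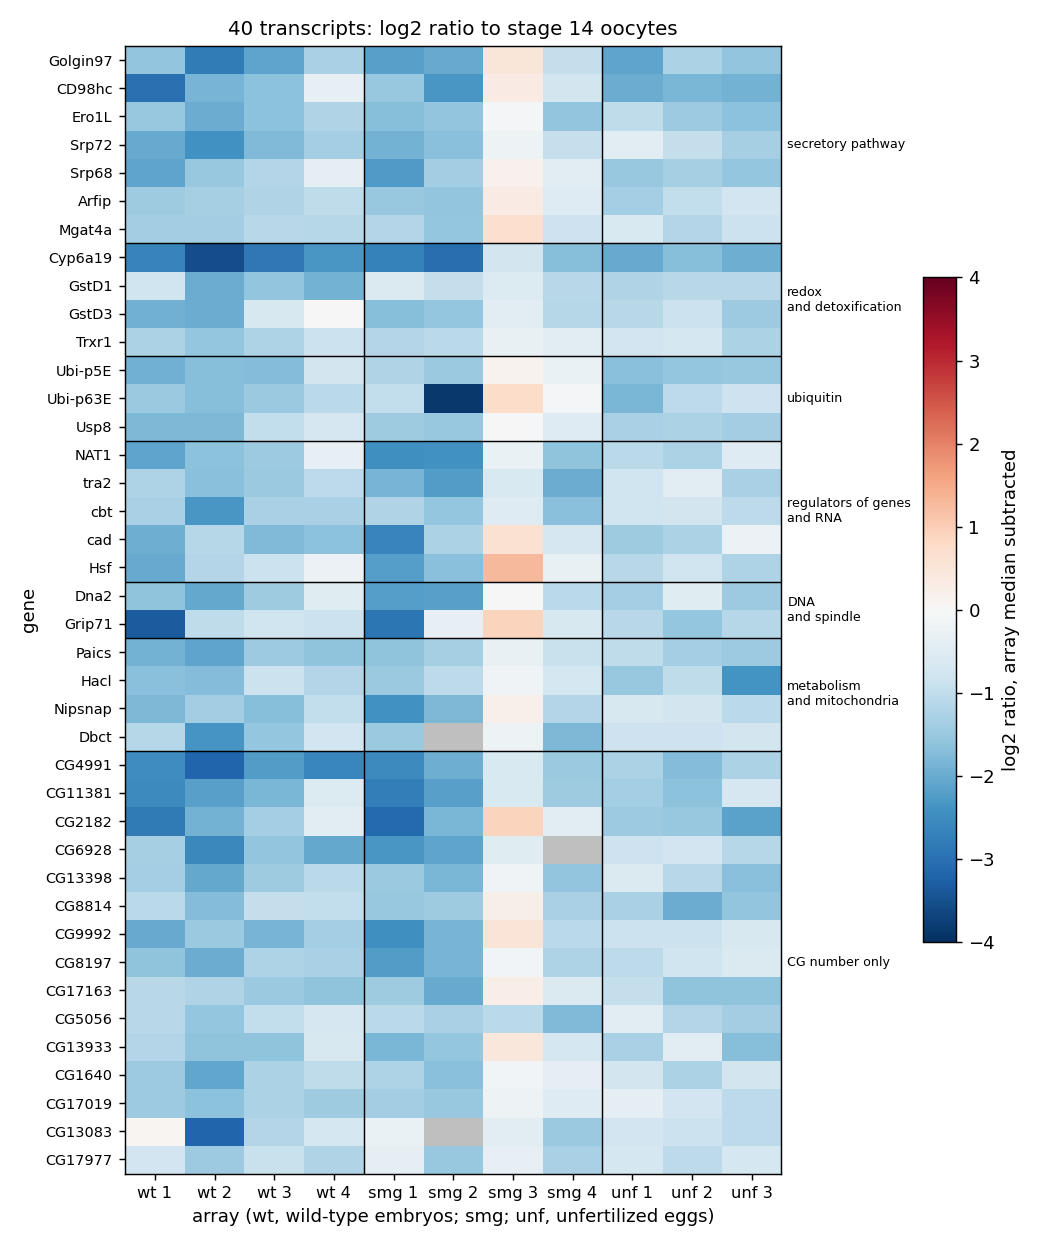
Log2 ratio to stage 14 oocytes, with the array median subtracted, of the 40 transcripts (rows, grouped by known role) on the 11 arrays (columns). Blue is below the array median, red is above it, and grey marks a missing value. All 40 rows are blue on wild-type embryo replicates 2 and 3 and on the 3 unfertilized arrays, and 18 are above 0 on smg replicate 3.

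Below the oocyte level on every array that measured them were 21 of the 40 transcripts, and leaving aside smg replicate 3 the number was 39. The exception was CG13083, at 0.07 on wild-type embryo replicate 1. The median over the transcripts was -1.45 for the wild-type embryo mean (from -2.85 to -1.07), -1.05 for the smg mean (from -2.04 to -0.71) and -1.11 for the unfertilized mean (from -1.90 to -0.73). Over the 5791 genes with 3 or more arrays in each 2 to 3 h group the same medians were -0.01, 0.15 and -0.00. Without smg replicate 3 the median of the smg means was -1.47. These values chose the transcripts and are given as a description. In such bulk RNA a lower level of one transcript cannot be told apart from a higher level of the RNA around it, nor fewer cells holding it from less of it per cell.

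The number of transcripts that passed each limit was as follows. Of the 5791 genes 423 met the wild-type embryo limit, and 306 of these also met the unfertilized limit. The smg mean was at or below -0.7 for 49 of the 306, and 4 of these 49 were left out because smg exceeded wild type by 1 or more. The other 261 of the 306 had a median smg mean of 0.23, which was -0.30 without smg replicate 3. Their median wild-type mean was -1.50 and their median unfertilized mean -1.32. No gene was set aside by symbol among the 261, which still hold CCT2, CCT7 and ATPsynC. The counts of 40 and of 261 depend on the arrays used. The rule chose 79 genes in place of 40 without smg replicate 3, and 160 on the earlier slides alone. Earlier and later here mean lower and higher slide numbers, with the 2 to 3 h slides parted at the largest gap. Slide numbers give no date or batch.

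**Figure D2:**
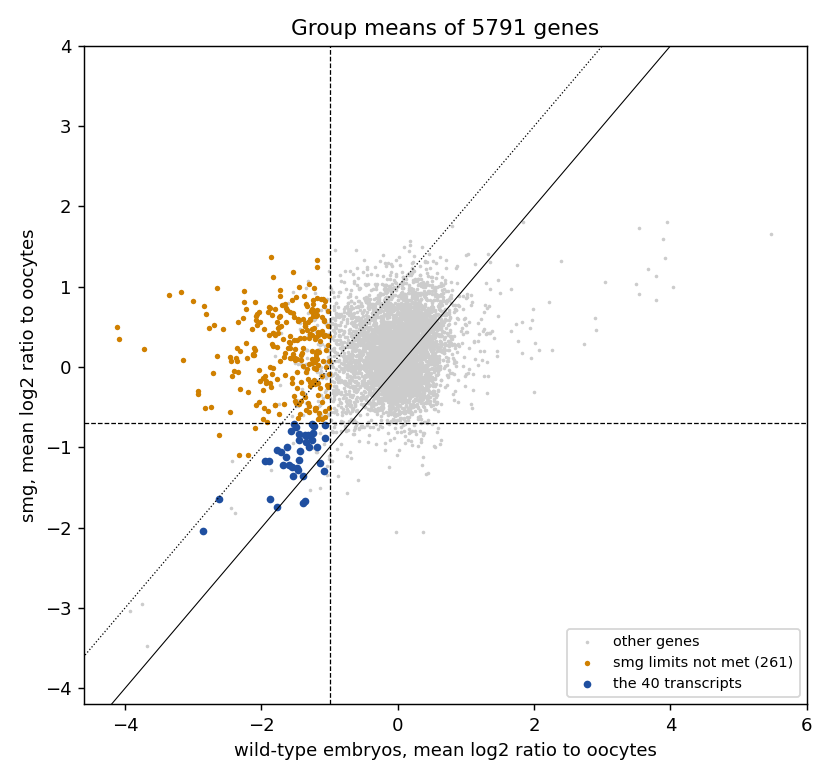
Mean log2 ratio to oocytes in wild-type embryos (horizontal axis) and in smg (vertical axis) of 5791 genes. Dashed lines are the limits at -1 and -0.7, the solid line marks equal means and the dotted line a difference of 1. The 40 transcripts lie in the corner below both limits. Genes kept out by the unfertilized limit, which is not drawn, by the difference or by symbol lie there as well. The 261 genes that met the wild-type and unfertilized limits but not those on smg have a median smg mean of 0.23, or -0.30 without smg replicate 3. No gene was set aside by symbol among them.

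The group ordered under the secretory pathway held 7 genes, of which CD98hc, a transporter subunit, was placed there for ordering only. They encode Srp68 and Srp72, protein subunits of the signal recognition particle that brings ribosomes to the endoplasmic reticulum, Ero1L, the oxidase behind disulfide bonds in that compartment, Golgin97 and Arfip of the Golgi, Mgat4a, named for an enzyme that branches N-glycans, and CD98hc, the heavy chain of amino acid transporters. Their wild-type embryo means ran from -1.95 (Golgin97) to -1.25 (Arfip) and their unfertilized means from -1.90 (CD98hc) to -0.87 (Mgat4a).

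Srp72 was at -2.02, -2.43, -1.77 and -1.36 on wild-type embryo replicates 1 to 4, at -1.89, -1.68, -0.20 and -0.93 on the smg arrays, and at -0.45, -0.97 and -1.33 on the unfertilized arrays. Every array lay below 0, with smg replicate 3 nearest to it. Srp68 was at -2.11, -1.53, -1.18 and -0.37 in wild-type embryos, at -2.28, -1.39, 0.17 and -0.46 in smg, and at -1.52, -1.34 and -1.56 in unfertilized eggs. For Srp68 replicate 1 was the lowest array in both genotypes, and smg replicate 3 the highest of all. The difference of smg from wild type was 0.72 for Srp72 and 0.30 for Srp68, and 0.39 and -0.08 without smg replicate 3.

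Ero1L gave -1.52, -1.98, -1.65 and -1.22 in wild-type embryos and -1.02, -1.44 and -1.63 in unfertilized eggs. In smg it was at -1.70, -1.57, -0.041 and -1.59, so that 3 smg arrays lay within the range of the wild-type arrays and replicate 3 lay near 0. Golgin97 had means of -1.95 ± 0.67 (SD, n = 4) in wild-type embryos, -1.16 ± 1.22 (SD, n = 4) in smg and -1.65 ± 0.42 (SD, n = 3) in unfertilized eggs. CD98hc had unfertilized values of -1.98, -1.83 and -1.89, a range far narrower than its wild-type values of -2.99, -1.86, -1.63 and -0.34. Of the 7 genes 5 lay above 0 on smg replicate 3, Mgat4a the highest at 0.67.

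Redox and detoxification genes numbered 4: the cytochrome P450 gene Cyp6a19, the glutathione S-transferase genes GstD1 and GstD3, and Trxr1, the thioredoxin reductase that also keeps glutathione reduced in flies. None of them was above 0 on smg replicate 3. Cyp6a19 had the lowest wild-type mean and the lowest smg mean of the 40. It was at -2.68, -3.54, -2.87 and -2.32 in wild-type embryos and -2.71, -3.03, -0.74 and -1.69 in smg. Its unfertilized values of -2.01, -1.70 and -1.95 lay above all 4 wild-type embryo values. Trxr1 stayed closer to the limits, with means of -1.23 ± 0.28 (SD, n = 4), -0.74 ± 0.44 (SD, n = 4) and -0.91 ± 0.31 (SD, n = 3) in wild-type embryos, smg and unfertilized eggs.

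GstD1 and GstD3 are paralogs with 1 protein-coding gene between them in the annotation, and the files do not show how far their spots share signal. GstD1 was at -0.78, -1.99, -1.58 and -1.88 in wild-type embryos, at -0.57, -0.96, -0.56 and -1.10 in smg, and at -1.21, -1.09 and -1.11 in unfertilized eggs. Its smg SD of 0.28 was the smallest of the 40, and smg replicate 3 lay level with replicate 1. GstD3 was at -1.93, -2.0, -0.63 and -0.01 in wild-type embryos and at -1.71, -1.53, -0.42 and -1.13 in smg. The separate pairs of spots of GstD3 disagreed, with wild-type means of -2.24 and 0.01, so that its place among the 40 rests on 1 pair.

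Ubiquitin genes numbered 3, the polyubiquitin genes Ubi-p63E and Ubi-p5E and the deubiquitinase gene Usp8. Both polyubiquitin genes encode repeats of the same protein, so cross-hybridisation between them cannot be told apart from a shared low level. Ubi-p5E was at -1.93, -1.70, -1.73 and -0.73 in wild-type embryos, at -1.22, -1.47, 0.14 and -0.28 in smg, and at -1.66, -1.54 and -1.53 in unfertilized eggs. It had the smg mean nearest to the limit (-0.71). Ubi-p63E ranged from -3.87 on smg replicate 2 to 0.74 on smg replicate 3, the widest smg spread of the 40 (SD 2.01), while its wild-type arrays lay between -1.71 and -1.09. Usp8 had means of -1.31 in wild-type embryos, -0.85 in smg and -1.33 in unfertilized eggs. All 3 genes lay above 0 on smg replicate 3.

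Regulators of genes and RNA numbered 5. cad (caudal) encodes a homeodomain protein of the posterior embryo whose maternal RNA is followed by zygotic expression, cbt encodes a zinc-finger transcription factor, Hsf the heat shock transcription factor, tra2 a splicing regulator of sex determination, and NAT1 a relative of the translation factor eIF4G. cad was at -1.94, -1.13, -1.77 and -1.65 in wild-type embryos, at -2.63, -1.25, 0.60 and -0.68 in smg, and at -1.43, -1.25 and -0.24 in unfertilized eggs. On these arrays cad was thus below the oocyte level in 2 to 3 h embryos, an age at which its zygotic transcription is known.

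tra2 and NAT1 had the lowest smg values relative to wild type. tra2 was at -1.25, -1.66, -1.48 and -1.04 in wild-type embryos and at -1.85, -2.24, -0.60 and -1.99 in smg, so that 3 of 4 smg arrays lay below all wild-type arrays. Its unfertilized values were -0.80, -0.45 and -1.30. NAT1 was at -2.10, -1.65, -1.46 and -0.33 in wild-type embryos and at -2.46, -2.43, -0.26 and -1.60 in smg. The smg minus wild-type difference was -0.31 for tra2 and -0.30 for NAT1, and -0.67 and -0.78 without smg replicate 3. limma did not call either difference (adjusted p = 0.931 for tra2 and 0.972 for NAT1), and the arrays of both groups overlapped.

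cbt lay below 0 on every array. Its wild-type embryo values were -1.31, -2.32, -1.29 and -1.29, and its smg values -1.22, -1.56, -0.50 and -1.68, with -0.79, -0.73 and -1.05 in unfertilized eggs. Hsf spread more widely. Its wild-type values ran from -2.01 to -0.25 and its smg values from -2.22 to 1.29, the highest value of any of the 40 on any array. Hsf unfertilized values were closer together, at -1.11, -0.81 and -1.22.

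The genes of DNA and the spindle were Dna2, a nuclease-helicase of replication, and Grip71, which recruits the gamma-tubulin ring complex. Dna2 had nearly equal means of -1.39 in wild-type embryos and -1.35 in smg, beside -1.10 in unfertilized eggs. Grip71 was at -3.32, -1.0, -0.79 and -0.85 in wild-type embryos and at -2.88, -0.33, 0.88 and -0.66 in smg, lowest by far on the pair of arrays with few measured spots. Its pairs of spots gave wild-type means of -2.20 and 0.07 and unfertilized means of -2.45 and -0.08. Grip71 therefore also rests on 1 pair of spots.

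Metabolic and mitochondrial genes were Paics, of purine synthesis, Hacl, named for a lyase of 2-hydroxyacyl-CoA, Dbct, of branched-chain amino acid breakdown, and Nipsnap. Paics lay below 0 on all 11 arrays. Its wild-type embryo values were -1.89, -2.11, -1.47 and -1.61, its smg values -1.62, -1.32, -0.30 and -0.88, and its unfertilized values -1.02, -1.37 and -1.45. Hacl was lowest in unfertilized eggs, with a mean of -1.65 ± 0.69 (SD, n = 3) against -1.36 ± 0.42 (SD, n = 4) in wild-type embryos, a gap smaller than either spread. Dbct had the tightest unfertilized values of the 40, -0.81, -0.83 and -0.75, and was measured on 3 smg arrays. Nipsnap was at -2.42, -1.78, 0.22 and -1.16 in smg, above 0 on replicate 3 alone.

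The remaining 15 transcripts carry a CG number alone, and no role is given for them here. CG4991 was at -2.49, -3.17, -2.22 and -2.61 in wild-type embryos, at -2.55, -1.94, -0.60 and -1.47 in smg, and at -1.27, -1.72 and -1.28 in unfertilized eggs. It combined the second lowest wild-type mean with the largest smg minus wild-type difference of the 40 (0.98). CG11381 had almost the same mean in both genotypes, -1.77 ± 0.87 (SD, n = 4) in wild-type embryos and -1.74 ± 0.94 (SD, n = 4) in smg. For CG13083, at -0.26, -0.43 and -1.50 on the 3 smg arrays that measured it, smg replicate 3 was not the highest. For CG5056 smg replicates 1 and 3 were level, at -1.07, -1.29, -1.06 and -1.77 in smg beside -1.10, -1.54, -0.98 and -0.68 in wild-type embryos. CG8814 was at -1.30, -1.98 and -1.57 in unfertilized eggs, beside a wild-type mean of -1.19. The wild-type means of the 15 ran from -2.62 to -1.07, their smg means from -1.74 to -0.73 and their unfertilized means from -1.70 to -0.73. CG17019 and NAT1 have 2 protein-coding genes between them, the second of the close pairs among the 40 in the annotation.

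Of these 15 transcripts 5 lay above 0 on smg replicate 3. CG2182 was at -3.10, -1.82, 0.88 and -0.42 in smg, after -2.83, -1.88, -1.37 and -0.47 in wild-type embryos and -1.44, -1.52 and -2.14 in unfertilized eggs. CG9992 was at -2.46, -1.87, 0.53 and -1.08 in smg, with wild-type values between -2.02 and -1.36. For both, replicate 1 was the lowest array of either genotype. CG13933 had a wild-type mean of -1.26, a smg mean of -0.90 and 0.45 on smg replicate 3, and CG17163 had -1.35, -0.93 and 0.28. CG8814, the fifth, was at -1.52, -1.41, 0.24 and -1.30 in smg.

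CG6928 had values of -2.34, -2.11 and -0.50 on 3 smg arrays, beside -1.32, -2.58, -1.57 and -2.05 in wild-type embryos and -0.84, -0.75 and -1.14 in unfertilized eggs. Its unfertilized values all lay above its wild-type ones. CG8197 showed the same separation, with wild-type values from -1.98 to -1.24 and unfertilized values from -1.03 to -0.58. CG17019 ranged from -1.64 to -1.25 in wild-type embryos, from -1.51 to -0.21 in smg and from -1.04 to -0.38 in unfertilized eggs. None of these separations passed the test of wild-type embryos against unfertilized eggs. CG13398, CG1640 and CG17977 had wild-type means of -1.47, -1.46 and -1.07, smg means of -1.26, -0.84 and -0.89, and unfertilized means of -1.11, -0.92 and -0.81.

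The limits of the rule cut through a continuum. Nearest inside the wild-type limit lay CG17977 (-1.07), Hsf (-1.07) and CG5056 (-1.08), and nearest outside it CG43693 (-0.99), Cyp4e2 (-0.95) and PhKgamma (-0.91). At the smg limit Ubi-p5E (-0.71), Mgat4a (-0.71) and Hsf (-0.72) were inside, and Tsp42Ef (-0.65), fs(1)N (-0.65) and CG8668 (-0.64) outside. At the unfertilized limit CG17019 (-0.73), CG9992 (-0.79) and Dbct (-0.80) were inside, and CG5114 (-0.69), Ggt-1 (-0.66) and pll (-0.65) outside. For the difference CG4991 (0.98), Ubi-p5E (0.82) and Cyp6a19 (0.81) were inside, and CG6927 (1.10), slif (1.22) and CG11807 (1.34) outside. The smg limit alone kept out 26 genes, the unfertilized limit alone 16, the wild-type limit alone 12 and the difference alone 4.

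limma's moderated test against the oocyte level, with Benjamini-Hochberg adjustment over all genes tested and a threshold of 0.05, called 22 of the 40 lower in wild-type embryos. The same call was made for 2.48% of the 6328 genes tested. In unfertilized eggs it called all 40 lower, beside 10.0% of 6782 genes. In smg it called 0 of the 40, beside 0.0654% of 6112 genes, while 35 of the 40 were lower at an unadjusted p under 0.05, beside 2.70% of genes. The rule used these contrasts, so the counts describe the selection and support nothing. With the earlier and later slides as a block limma called 10 of the 40 lower in smg, beside 0.344% of genes, and 37 in wild-type embryos, beside 6.78%. Without smg replicate 3 it called 16 of the 40 lower in smg, beside 0.535% of genes, and 36 in wild-type embryos, beside 6.59%, since that test shares its spread with the smg arrays. Leaving out wild-type embryo replicate 1, 2, 3 or 4 gave wild-type counts of 4, 2, 4 and 6, beside 0.324%, 0.252%, 0.442% and 0.576% of genes. Leaving out smg replicate 1 gave 35, beside 4.44%.

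Between smg and wild-type embryos 0 of the 40 were called by limma in either direction, beside 0.276% of 5791 genes, and 1 of 40 (CG4991) passed an unadjusted p of 0.05, beside 10.1% of genes. The rule kept out differences of 1 or more. For all 40 the arrays of both groups overlapped, whereas 9.70% of genes had groups that did not overlap. The median difference was 0.42, beside 0.17 over all genes tested, and the smg mean was the lower in 4 of the 40 (tra2, NAT1, CG5056 and GstD3). Without smg replicate 3 the median difference was 0.0032 and the smg mean was the lower in 20 of the 40.

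The genotype difference of the transcripts was also read on the earlier and the later slides apart. On the earlier slides, replicates 1 and 2 of each genotype by the slide numbers in the titles, their median was -1.76 in wild-type embryos and -1.70 in smg, with a median difference of 0.07 over 38 transcripts and smg lower in 17. On the later slides, replicates 3 and 4, the medians were -1.15 and -0.47, with a median difference of 0.87 over 39 transcripts and smg lower in 5. Much of this lies on smg replicate 3. Against smg replicate 4 alone, a comparison chosen after seeing the data, the smg median was -0.94, the median difference 0.31 and smg lower in 13 of 39. Over all genes the median difference was 0.12 on both sets, and 0.08 against smg replicate 4 alone. On the earlier slides smg was lower in 44.7% of the transcripts and in 39.9% of all genes, a like share. It was lower in 12.8% and 44.1% on the later slides, and in 33.3% and 45.1% against smg replicate 4 alone. With 2 arrays per genotype in each set, these are values with no test.

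**Figure D3:**
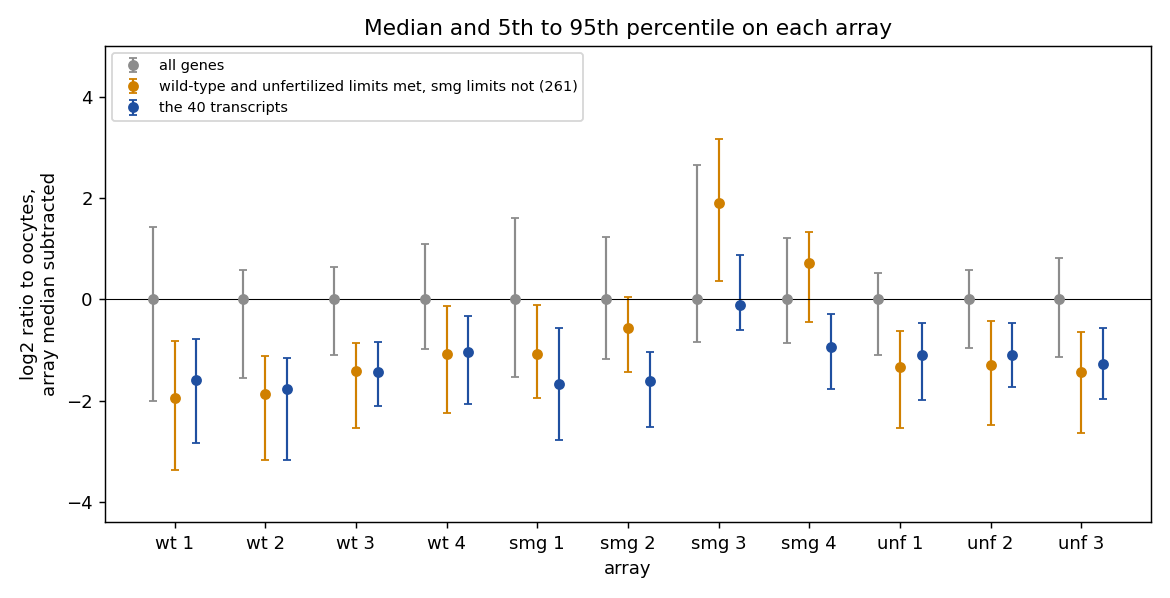
Median (point) and range from the 5th to the 95th percentile (bars) of log2 ratios on each array for all genes, for the 261 genes that met the wild-type and unfertilized limits but not those on smg, and for the 40 transcripts. The 40 and the 261 lie close together on the wild-type and unfertilized arrays, and on every smg array the 40 have the lower median, -1.66 against -1.08 on replicate 1 and -0.10 against 1.91 on replicate 3. The mean of these smg arrays parted both sets, so that gap describes the selection. No gene was set aside by symbol among the 261.

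On all 4 smg arrays the 40 transcripts lay below the 261 that missed the limits on smg, as the rule arranged for the mean. Both sets differ also in that no gene was set aside by symbol among the 261. The medians of the 261 were -1.08, -0.56, 1.91 and 0.72 on smg replicates 1 to 4. On smg replicates 1 and 2 most of the 261 were therefore below the oocyte level as well, 252 of 261 and 235 of 251, and on replicates 3 and 4 it was 2 of 261 and 49 of 260. Both sets lay higher on replicates 3 and 4 than on replicates 1 and 2. These same arrays parted the 40 from the 261, so the gap between their medians describes the selection and supports nothing.

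Wild-type embryos and unfertilized eggs differed in age, fertilization, dye orientation and labelling method, which cannot be told apart. The rule asked for a wild-type mean 0.3 lower than it asked of the other groups, so the order of the group means follows in part from the selection. The wild-type embryo mean was the lowest of the 3 group means for 28 of the 40 transcripts, the unfertilized mean for 8 and the smg mean for 4. The median of the wild-type minus unfertilized difference was -0.33, from -1.20 (CG4991) to 0.43 (CG8814), about the gap between the limits. limma called 0 of the 40 in this comparison, beside 0.301% of 6322 genes, and 2 passed an unadjusted p of 0.05, beside 3.24% of genes. These were CG4991 (-1.20, SE 0.43) and Srp72 (-0.98, SE 0.44). Both had an adjusted p far from the threshold (0.949 and 0.999). The rule held both the smg and the unfertilized mean at or below -0.7, which leaves little room for a difference, so nothing is read from the next counts. Between smg and unfertilized eggs the median difference was 0.11 and limma called 0 of the 40, beside 0.295% of 6107 genes, with 0 at an unadjusted p under 0.05, beside 11.3% of genes. Without smg replicate 3 that median was -0.31, with 6 of the 40 lower at an unadjusted p under 0.05, beside 146 of 6349 genes, and 0 called.

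To read the transcripts on arrays that had no part in choosing them, the rule was applied without each array in turn. Without any 1 of the wild-type embryo arrays it chose 36 to 42 genes, and 97.2%, 100%, 100% and 97.6% of them lay below 0 on the array left out, replicates 1 to 4, where about 50% of all genes do. For the unfertilized arrays 39 to 41 genes were chosen and 100%, 97.6% and 100% lay below 0 on the array left out. At or below -0.7 were 78.0%, 85.4% and 79.5%, beside 10.9%, 8.46% and 12.8% of all genes. Left out in turn, smg replicates 1, 2 and 4 had all 25, all 23 measured and 40 of 42 measured genes below 0, with medians of -1.52, -1.57 and -0.74. At or below -0.7 were 88%, 95.7% and 54.8% of those measured, beside 24.6%, 14.4% and 8.67% of all genes. As replicates may be technical, an array left out need not be independent of the arrays that chose.

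Smg replicate 3 did not follow. Without it the rule chose 79 genes, including all 40, and on replicate 3 only 23 of the 79 lay below 0 (29.1%, beside 50.0% of all genes there), with a median of 0.43. Only 2 of the 79 (2.53%) were at or below -0.7 on that array, beside 9.97% of all genes. The genes that met the limits but are set aside by symbol all stayed below 0 on replicate 3, to differing degrees. The yolk protein gene Yp1 had -4.17 to -3.33 on smg replicates 1, 2 and 4, and -3.01 on replicate 3. By contrast exu was at -3.79, -3.08 and -3.36 on replicates 1, 2 and 4, and at -1.56 on replicate 3. For yin replicate 3 was at -1.66, and the highest other smg array at -2.96. For Yp2 and Yp3 replicate 3 lay within the range of the other smg arrays. The cause was not tested.

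**Figure D4:**
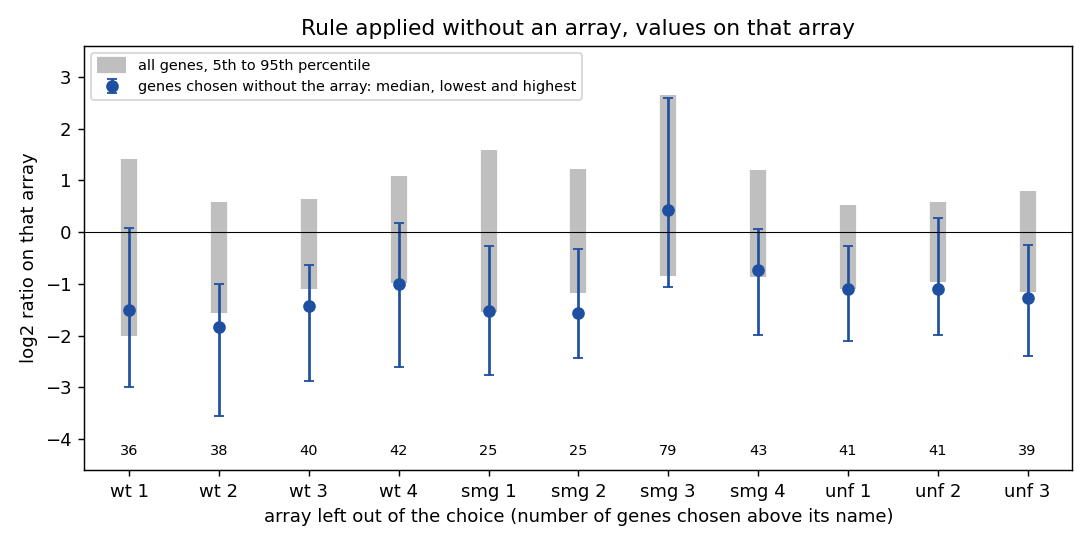
For each array, the genes chosen by the rule without that array, read on it: the point is their median log2 ratio and the bars their lowest and highest values, and the grey band spans the 5th to the 95th percentile of all genes. The median lies between -1.82 and -0.74 on 10 arrays and at 0.43 on smg replicate 3.

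All 11 choices that left out 1 array held 12 of the 40: CG11381, CG6928, Ero1L, Paics, NAT1, Srp72, CG13398, Dna2, CG8814, CG9992, cbt and Dbct. The fewest choices for any of the 40 were 7 of 11, for CG4991. On the later slides alone 8 of the 40 met the limits: CG11381, Ero1L, tra2, CG13398, cbt, GstD1, Dbct and CG17977. CG11381, Ero1L, CG13398, cbt and Dbct are in both lists.

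Agreement between spots was close for genes with 2 spots and wider for those with 4. A gene had 2 spots in 34 cases, with a median gap of 0.07 between their means over all arrays and a largest gap of 0.34 (CD98hc). These 2 spots were neighbours in spot number and form 1 pair. They may be repeats of 1 probe, which was not tested, so the 34 genes rest on 1 pair as well. The 6 genes with 4 spots, CG17019, Cyp6a19, Grip71, GstD1, GstD3 and Trxr1, had a median range of 1.40. Cyp6a19 was low on both pairs, with wild-type means of -4.06 and -1.65, and GstD1 had -0.75 and -2.37. Of the 92 spots of the 40 transcripts, 88 had all 3 group means below 0 and 76 met the 3 limits on group means. The averages of these spots chose the transcripts, so both counts describe the selection and support nothing. Among the 6 genes with 4 spots, both pairs met the 3 limits for Cyp6a19 and 1 pair did for the other 5.

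Transcripts of the decay machinery were not among the 40. Of 35 listed decay and repression factors 23 had a named spot, and 0 were members. As 40 of 5791 genes were members, a list of this length would hold few or none. Nothing is read from the absence. Against oocytes limma called 0 of 22 in wild-type embryos, 0 of 23 in smg and 5 of 23 lower in unfertilized eggs (Imp, Not10, Not3, Pop2 and orb). Over all genes 2.48%, 0.0654% and 10.0% were called lower in these groups. For a list this short nothing is read from the counts. Their median wild-type mean was -0.33 and their median smg mean 0.54, beside -0.01 and 0.15 over all genes. Without smg replicate 3 their median smg mean was -0.026, beside 0.10 over all genes. orb, which encodes a cytoplasmic polyadenylation factor, had means of -1.93, -0.19 and -1.34 in wild-type embryos, smg and unfertilized eggs. It missed the limits on the smg mean and on the difference, and without smg replicate 3, at a smg mean of -0.91, on the difference alone (1.02). brat, which encodes Brain tumor, was at 0.08, 0.30 and -0.12.

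Germ plasm and egg activation transcripts were not among the 40 either, and for such short lists nothing is read from this. The germ plasm genes osk, exu, swa and CycB are set aside by symbol and could not be members. Of 22 germ plasm genes 10 had a named spot, and 4 of 9 tested fell in wild-type embryos (exu, osk, piwi and swa), beside 2.48% of all genes. Of the 10, exu alone was called lower in smg, beside 0.0654%, and aub, exu, osk and piwi in unfertilized eggs, beside 10.0%. piwi was called higher in smg than in wild-type embryos and than in unfertilized eggs, beside 0.19% and 0.295% of all genes. exu met the limits but is set aside by symbol, with means of -3.75 in wild-type embryos, -2.95 in smg and -1.91 in unfertilized eggs. Of 20 egg activation genes 10 had a named spot, with median means of -0.56 in wild-type embryos and 0.50 in smg, or 0.24 without smg replicate 3. Of these Prip, a water channel gene, fell in wild-type embryos, beside 2.48% of all genes. Cks30A, Mos and Prip fell in unfertilized eggs, beside 10.0%.

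A stage 14 egg chamber can carry follicle cells that a laid egg has lost. Of 28 follicle cell and eggshell markers 6 had a named spot, fon, pip, Cad74A, Yp1, Yp2 and Yp3, and the listed vitelline membrane and chorion genes were not used here. Their mean, over 5 markers on wild-type embryo replicate 1 and smg replicate 1, where pip had no value, and over 6 elsewhere, lay between -1.41 and -1.07 on the wild-type embryo arrays, between -1.36 and -0.76 in smg and between -1.26 and -0.79 in unfertilized eggs. limma called Yp1 and Yp3 lower both in smg and in wild-type embryos, and all 3 yolk protein genes in unfertilized eggs. Over all genes it called 0.0654%, 2.48% and 10.0% lower in these groups. fon, pip and Cad74A had wild-type means of 0.15, -0.16 and 0.25. On smg replicate 3 the mean of these markers was -1.21, within the range of the other smg arrays. The part of follicle cell RNA in the values of the 40 was not tested.

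The genes most like the 40 over the 11 arrays, by Euclidean distance to their median profile among genes measured on every array, were pll (1.28), CG43693 (1.40), CG10863 (1.40), Pgi (1.45) and mRpS29 (1.45). Each missed a limit or was set aside: pll, CG10863 and mRpS29 had unfertilized means of -0.65, -0.60 and -0.53, CG43693 a wild-type mean of -0.99, and Pgi a smg mean of -0.59. Among the 37 of the 40 measured on every array the distance ran from 0.86 (Usp8) to 3.71 (Cyp6a19).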

How the data were processed

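Per the series design text, images were quantified with QuantArray 3 and ratios made in GeneTraffic Duo 3.2 with rank-invariant LOWESS normalization. How background was corrected and spots were filtered is not stated there. Each deposited value is a log ratio, taken as log2, of 1 spot on 1 array, normalized by the authors. Base and direction are not stated. Values were read as log2 of sample over oocyte, the likely direction, from the titles and the low yolk protein values. Per the labels, the 2 to 3 h samples were in Alexa Fluor 647 and their oocyte RNA in Alexa Fluor 555, 60 µg each, and the unfertilized samples in Cy3 with oocyte RNA in Cy5, with no dye swap within a group.

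Of 27648 spots 15116 carried 1 gene, 102 several and 12430 were not listed. All 40 transcripts matched RefSeq gene numbers (Release 6 plus ISO1 MT, names and neighbours only). The median-centred gene means were tested in R 4.3.3 by limma 3.58.1 (lmFit, eBayes), for genes with a value on at least 3 of 4 or 2 of 3 arrays of each group compared, two-sided. One model held the 8 arrays at 2 to 3 h, another the 3 unfertilized arrays, and a last one all 11 for comparisons between them. The fit was also run on simulated data, with independent noise of the wild-type spread on every array and no gene lowered in smg. That setting does not cover the wider spread of the smg arrays. Over the 40 transcripts the median SD was 0.88 in smg and 0.45 in wild-type embryos. Transcripts and lists were chosen with earlier results of these data known. By the rule for named genes all transcripts were given with values, as they did not exceed 40, with the 3 genes nearest to each side of a limit and the 5 genes nearest in profile. No promoter sequence was used here. Roles were assigned afterwards, for ordering. Alternatives are in the closing section.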

Additional observations from a re-analysis of the deposited data

Results flagged for a closer look

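In 5 of 79 sets of 4 arrays 1 array stood far from the other 3, where chance gives about 1 in 20. On smg replicate 3 Ero1L was at -0.041 (the others between -1.70 and -1.57) and CG8814 at 0.24 (between -1.52 and -1.30). On wild-type embryo replicate 2 CG8814 was at -1.75 (the others between -1.08 and -0.95) and cbt at -2.32 (between -1.31 and -1.29). On wild-type embryo replicate 1 Grip71 was at -3.32 (the others between -1.0 and -0.79).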

How the results depend on the processing

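The rule found 222 genes in the values as deposited, 126 with the sign of smg replicate 3 turned, 26 without wild-type embryo replicate 1 and smg replicate 1 together, 160 on the earlier slides alone and 8 on the later slides alone. Leaving out 1 array gave 25 (without smg replicate 1 or 2) to 79 (without smg replicate 3). Of the 40 transcripts called lower in wild-type embryos there were 0 in the values as deposited, 37 with earlier and later slides as a block (6.78% of all genes), 37 with arrays scaled to the same spread (7.30%), 6 without the pair of replicates 1 (0.693%), and 2 to 36 with 1 array left out. In smg the count was 10 with the block (0.344%), 1 with the median of spots (0.0818%) and 0 to 16 with 1 array left out. In unfertilized eggs it was 36 to 40, beside 7.03% to 11.4% of all genes. Called between smg and unfertilized eggs were 3, all higher in smg, with arrays scaled, where 5.75% of all genes were, a like share. The comparison of both genotypes and that of wild-type embryos with unfertilized eggs had 0 calls among the 40 under all alternatives run. Over all genes, at most 0.414% were called lower and 3.7% higher in smg than in wild-type embryos. For wild-type embryos against unfertilized eggs it was at most 0.0633% and 0.854%. Counts of 0 among 40 are near such shares, and nothing is read from them. The median smg minus wild-type difference ranged from 0.0032 (without smg replicate 3) to 0.65 with 1 array left out, and was 0.30 in the values as deposited and 0.78 with arrays scaled. That scaling also gave 28 genes by the rule, 21 of them among the 40, and a median smg minus unfertilized difference of 0.74 in place of 0.11. No paired analysis was possible because replicates were numbered in accession order, which pairs no samples, and the block above is the set of slides. For 18 of the 40 a value above 0 on smg replicate 3 entered the smg mean, and the cause was not tested.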

Other observations

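Among the 12430 spots not listed in the probe table, 6163 had values on 3 or more arrays of each 2 to 3 h group, and 19 of these met the same limits. They carry no gene name here.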
